A study of Mus musculus with 14 samples.

Results

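Zeb2 regions without p300 are stretches of the mouse genome where the repressor Zeb2 was detected in both replicates of 120 h gastruloids and the coactivator p300 was not detected in both replicates of the same stage. A Zeb2 region was made by merging overlapping peaks of the 2 Zeb2 replicates and keeping the merged stretches that held a peak of each. Peaks at sites that also gave a peak in an input library, which is sonicated chromatin without immunoprecipitation, were dropped first. Of 10172 Zeb2 regions, 2208 shared no base with a p300 region built in the same way, which is 21.7% (95% Wilson interval 20.9 to 22.5, counting error only). With the peaks of a single Zeb2 library in place of regions found in both, the share was 48.6% for replicate 1 and 30.7% for replicate 2. The other 7964 Zeb2 regions overlapped 1 or more of the 53025 p300 regions and serve as the comparison.

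Gastruloids are aggregates of mouse embryonic stem cells (mESCs) that elongate and form derivatives of the germ layers. Here 300 cells were seeded per aggregate, the Wnt agonist CHIR99021 was given at 3 µM after 48 h, and aggregates were collected at 120 h; the labels give no other drug. Zeb2 was profiled in an E14 triple reporter line with HA-FKBP12F36V fused to the endogenous Zeb2 gene, and p300 in a line of the same origin with V5-miniTurboID fused to endogenous p300. FKBP12F36V is a degron tag, with which a protein can be removed by a ligand, and miniTurboID is a biotin ligase for proximity labelling. Also used were p300-V5-miniTurboID mESCs, lines with HA-FKBP12F36V on endogenous RXRα (mESCs and gastruloids) and on endogenous Sp5 (gastruloids), and 1 input each of mESCs and gastruloids from the p300 line. Each immunoprecipitation group had 2 libraries, and the labels do not say whether these came from separate cultures. Zeb2 and p300 were therefore measured in different lines and with different antibodies, and each library is a mixture of all cells of the aggregates. Expression was not measured in these files, so the cell types could not be checked against marker transcripts.

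Zeb2 is a zinc-finger protein that binds paired E-box sequences and recruits corepressors. It is best known for silencing E-cadherin and other epithelial genes during epithelial-mesenchymal transition, and for roles in neural and neural crest development. p300 is a histone acetyltransferase that many activators recruit to enhancers and promoters, so a p300 peak is widely used as a sign of active chromatin. Zeb2 and the miR-200 family are known to repress each other.

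The sequences below show the ZEB E-box, CACCTG, at regions without p300 in promoters, with the motif in capitals on either strand (CACCTG or CAGGTG). They are RefSeq promoter windows of build GRCm38.p6, written along the gene's strand from 250 bases before to 50 after the annotated start. Epha1 was chosen as the strongest region in such a window, and Crb3, F11r and Rab25 as the epithelial genes whose Zeb2 summit lay in theirs. Cyp26a1, which encodes a retinoic acid-degrading enzyme, was chosen as a window with no such motif. Windows were available for 17492 of the 21887 protein-coding genes. Cdh1, Cdh3, Esrp1 and Marveld3 had none, so their gene ends were not searched.
Epha1: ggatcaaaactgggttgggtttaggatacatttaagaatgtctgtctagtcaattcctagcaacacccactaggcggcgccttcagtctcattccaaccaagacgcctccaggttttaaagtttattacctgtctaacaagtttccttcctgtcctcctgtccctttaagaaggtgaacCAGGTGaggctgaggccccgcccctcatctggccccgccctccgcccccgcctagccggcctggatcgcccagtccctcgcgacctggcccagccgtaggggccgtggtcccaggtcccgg
Crb3: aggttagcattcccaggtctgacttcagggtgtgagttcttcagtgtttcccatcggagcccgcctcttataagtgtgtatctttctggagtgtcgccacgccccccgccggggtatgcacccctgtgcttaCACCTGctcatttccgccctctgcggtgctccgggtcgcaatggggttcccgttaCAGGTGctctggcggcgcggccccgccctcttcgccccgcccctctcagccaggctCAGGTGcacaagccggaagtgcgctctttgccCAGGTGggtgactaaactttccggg
F11r: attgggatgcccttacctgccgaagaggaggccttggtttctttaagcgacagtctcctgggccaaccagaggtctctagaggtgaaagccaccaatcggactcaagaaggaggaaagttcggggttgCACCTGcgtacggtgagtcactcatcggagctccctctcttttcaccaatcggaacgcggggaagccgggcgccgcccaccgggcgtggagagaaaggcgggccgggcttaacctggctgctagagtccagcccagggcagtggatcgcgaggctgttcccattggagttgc
Rab25: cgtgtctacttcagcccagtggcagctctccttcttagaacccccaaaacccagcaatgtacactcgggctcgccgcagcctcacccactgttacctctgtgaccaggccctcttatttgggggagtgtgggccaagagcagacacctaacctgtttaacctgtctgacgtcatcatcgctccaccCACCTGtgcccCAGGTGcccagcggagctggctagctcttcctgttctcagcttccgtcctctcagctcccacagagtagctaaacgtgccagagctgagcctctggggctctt
Cyp26a1: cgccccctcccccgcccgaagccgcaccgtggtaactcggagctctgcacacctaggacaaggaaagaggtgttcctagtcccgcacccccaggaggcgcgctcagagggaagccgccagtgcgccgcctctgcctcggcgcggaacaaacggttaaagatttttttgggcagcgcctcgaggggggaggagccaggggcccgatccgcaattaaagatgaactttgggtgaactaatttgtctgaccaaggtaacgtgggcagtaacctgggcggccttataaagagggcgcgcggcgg
The Epha1 window lies at chr6:42373219-42373518 on the minus strand and held 1 E-box, whose centre was 3.5 bp from the Zeb2 summit. The Crb3 window (chr17:57061951-57062250, plus strand) held 4, the nearest 12.5 bp from the summit. In Rab25 (chr3:88548230-88548529, minus strand) 2 E-boxes stood together, the nearer 32.5 bp from the summit, and in F11r (chr1:171437311-171437610, plus strand) the single E-box lay 79.5 bp away. The Cyp26a1 window lies at chr19:37697558-37697857 on the plus strand, with the summit 3 bp before the start. The windows of Hoxd1 and Hoxa5, the other listed genes with a summit in theirs, held no CACCTG either. A match describes the sequence and does not show that Zeb2 touched it.

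The regions without p300 were, by the values that chose them, somewhat weaker than the rest. The authors' fold, the fragment pileup at the summit over the local background as MACS2 defines it, had a median of 6.45 in replicate 1 and 5.08 in replicate 2 at regions without p300. At regions with p300 the medians were 7.59 and 5.45. The median summit held 30 fragments in replicate 1 and 12 in replicate 2 without p300, against 36 and 13 with p300. The merged regions were also narrower, with a median of 488 bp without p300 and 729 bp with p300. These values are descriptions, because the strength of a Zeb2 or p300 peak decides whether it enters a list. Summits of the 2 replicates lay within 100 bp of each other in 78.0% of the regions without p300 and in 71.4% of those with p300.

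**Figure D1:**
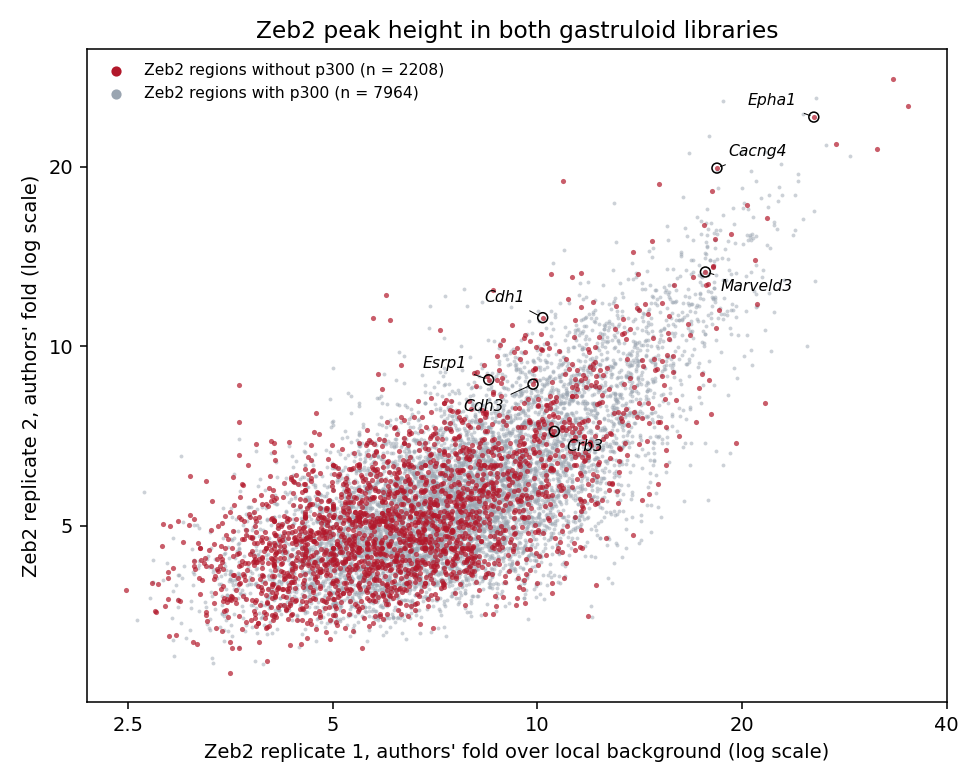
Authors' Zeb2 fold over local background in replicate 1 (horizontal) and replicate 2 (vertical), both on log scales, 1 point per Zeb2 region; red marks the 2208 regions without p300, grey the 7964 with p300. The red points fill the lower and middle range and also reach the top right, where Epha1 has folds of 25.5 and 24.2; circles mark the named genes.

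Absence of p300 here means absence from the list of regions found in both replicates. No p300 peak of either gastruloid library touched 1399 of the 2208 regions (63.4%). A peak of replicate 2 alone touched 452 (20.5%), a peak of replicate 1 alone touched 332 (15.0%), and 25 (1.13%) had peaks of both libraries that did not meet. The median gap to the nearest p300 region was 6228 bp, with 362 regions (16.4%) closer than 1 kb and 851 (38.5%) farther than 10 kb. Just inside the limit, regions nearest Rab10, Msx1 and Jarid2 each stood 7 bp from a p300 region. Just outside it, excluded regions nearest Gm42346, Btn1a1 and Ep300 overlapped a p300 region by 2, 4 and 6 bp.

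The strongest Zeb2 regions without p300 were a mixed group, in which receptor genes stood beside sites that also gave peaks with other HA-tagged proteins. Ranked by the fold in the weaker replicate, the first lay on chromosome 9 at chr9:52809995-52810630, over 100 kb from any protein-coding gene end, with folds of 33.4 in replicate 1 and 28.04 in replicate 2. The region at Epha1, a receptor tyrosine kinase of the ephrin family expressed in epithelia, lay at chr6:42372925-42373534 and had folds of 25.5 and 24.2, with 309 and 105 fragments at the summit. It had no p300 peak in either gastruloid library and stood 2546 bp from the nearest p300 region. Acvr1b, an activin receptor, held an intragenic region, with Zeb2 folds 19.3 and 15.4, and no peak of p300, RXRα or Sp5 in any library. Regions with the same lack of other peaks lay near Cavin3, a caveola protein gene (folds 21.8 and 16.4), and near H2-Q7, a gene of the major histocompatibility complex (17.6 and 15.97). Where Nipal3 and Stpg1 overlap, the folds were 20.4 and 17.3, with a p300 peak in replicate 1 alone.

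Of the 12 strongest regions, 5 overlapped a gastruloid RXRα region (41.7%), against 2.26% of all 2208 regions without p300 and 11.9% of those with p300. These 5 lay inside Gphn and Fcgr3 and near Rimbp3, Btbd16 and Myl12b, were 225 to 582 bp wide, and had gastruloid RXRα peaks in both libraries with folds from 8.52 to 30.2. At Myl12b, for example, the RXRα folds were 22.3 and 24.1 and the Zeb2 folds 15.1 and 18.7. The Gphn site had peaks in all 6 gastruloid libraries immunoprecipitated with HA antibodies, in both mESC RXRα libraries, and in 1 p300 library of each stage. No HA immunoprecipitation of an untagged line was analysed here, and the part of the antibody in these shared peaks was not tested. Cacng4, a calcium-channel subunit gene, held a region with 2014 and 721 fragments at the summit, far above the next highest among regions without p300 (814 in replicate 1 and 283 in replicate 2). Its folds, 18.4 and 19.9, did not stand apart in the same way, since the local background, by which the fold divides, was high too. The Cacng4 region had a gastruloid p300 peak in replicate 1 alone, with a fold of 4.26.

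Several genes gathered more than 1 region without p300. Zfp184, a zinc-finger gene in a cluster of transfer RNA (tRNA) genes on chromosome 13, was the nearest gene to 6 regions, and the summits of all 6 lay within 1 kb of a tRNA gene. Over all regions, 35 without p300 (1.59%) and 79 with p300 (0.992%) lay within 1 kb of a tRNA gene. Of 19 genes with 3 regions each, the 7 whose highest region had the highest fold in the weaker replicate are given here. The neuronal genes Elavl2, an RNA-binding protein, Chl1, a cell-adhesion protein, and Rbfox3, a splicing factor of mature neurons, were among them. So were Cobl, an actin nucleator, Cdk15, a kinase, Pdgfra, a growth-factor receptor of mesenchyme, and Bcas1. The highest of the Elavl2 regions lay 649 bp from a gene end, with folds of 11.6 and 13.3. It had no p300 peak in either library, but a p300 region lay 214 bp away. Of the genes of the profiled proteins, Zeb2, Ep300 and Rxra each had 0 regions without p300 and 2 with p300, and Sp5 had 0 of either.

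Genes of epithelial junctions and identity, the textbook targets of Zeb proteins, were often next to a Zeb2 region without p300. A region counts for the gene whose end lies closest to its summit, up to 100 kb away, which does not show which gene it regulates. Of 38 epithelial genes, 17 (44.7%) had a region without p300, beside 1867 of all 21887 protein-coding genes (8.53%). A region with p300 counted for 27 of the 38 (71.1%), beside 27.4% of all genes, and 8 of the 17 genes had both kinds. The list was drawn up with earlier results of these data known, so these counts describe it and are not a test. The 18 regions at these genes had median folds of 6.52 and 5.22, and 11 of them had no p300 peak in either gastruloid library, a share close to the 63.4% of all 2208.

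Among adhesion genes, Cdh1 encodes E-cadherin, the adherens junction protein whose loss defines epithelial-mesenchymal transition. Its region, chr8:106602911-106604458, had its summit 32 bp outside an end of the gene, with Zeb2 folds of 10.2 and 11.2 and 134 and 56 fragments. It carried a p300 peak in each gastruloid library, with folds of 2.49 and 4.25, but the 2 peaks were 505 bp apart and made no shared region. The nearest p300 region was 6467 bp away. In mESCs both p300 libraries had a peak there, with folds of 5.12 and 5.06, and these lay at the same end of the Zeb2 region as the replicate 1 gastruloid peak. Cdh1 was therefore a member because its 2 p300 peaks did not meet, not because p300 was undetected. Its neighbour Cdh3, which encodes P-cadherin, had Zeb2 folds of 9.85 and 8.64 at a summit 27 bp inside a gene end, with a p300 peak in replicate 2 alone.

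Esrp1, the epithelial splicing regulator, had a summit 23 bp inside a gene end, folds of 8.48 and 8.79, and no p300 peak in either library; a p300 region lay 471 bp away. Crb3, an apical polarity protein, had folds of 10.6 and 7.20 at a summit 8 bp after the start, and a p300 peak in replicate 1 alone. Marveld3, a tight-junction protein, had 2 regions near its ends, with folds of 17.7 and 13.3 at the stronger and 8.91 and 3.81 at the weaker, both without any gastruloid p300 peak. F11r, which encodes the junctional adhesion molecule JAM-A, had folds of 7.21 and 5.72 at 199 bp before its start. Rab25, an epithelial trafficking GTPase, had 5.28 and 4.68 at 94 bp before its start. The other genes were Ovol1 and Ovol2, repressors that guard the epithelial state, Cldn3 and Ocln (tight-junction proteins), Cgn (cingulin), Dsp and Pkp2 (desmosomes), Krt8 (a keratin), and the protease pathway genes Spint1 and St14. Their lowest folds were 3.97 for Dsp in replicate 1 and 3.63 for Ocln in replicate 2. Of the 18 regions, 10 lay within 1 kb of a gene end, 2 overlapped an Sp5 region, and 3, at Cdh1, Rab25 and St14, overlapped an mESC p300 region.

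The miR-200 family, which represses Zeb genes, was split between the classes; it was looked up after values had been seen. The sequences are RefSeq mature microRNAs of build GRCm38.p6 in RNA letters, with the seed, bases 2 to 8, in capitals, grouped by seed.
miR-200c-3p: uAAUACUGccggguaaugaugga
miR-200b-3p: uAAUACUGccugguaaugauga
miR-429-3p: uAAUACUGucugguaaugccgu
miR-141-3p: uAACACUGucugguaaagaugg
miR-200a-3p: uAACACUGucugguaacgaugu
The first 3 share the seed AAUACUG and the other 2 share AACACUG, but the genes are grouped differently, with miR-200c and miR-141 on chromosome 6 and the others on chromosome 4. A region without p300 (chr6:124718572-124719214) had its summit 470 bp from the Mir200c hairpin and 875 bp from Mir141, on the upstream side of both minus-strand genes. Its Zeb2 folds were 9.04 and 6.01, and no gastruloid p300 peak touched it. At the chromosome 4 cluster the nearest Zeb2 region (chr4:156059054-156060255) had close folds of 9.55 and 6.46, overlapped p300, and had its summit 3883 bp from Mir200b.

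**Figure D2:**
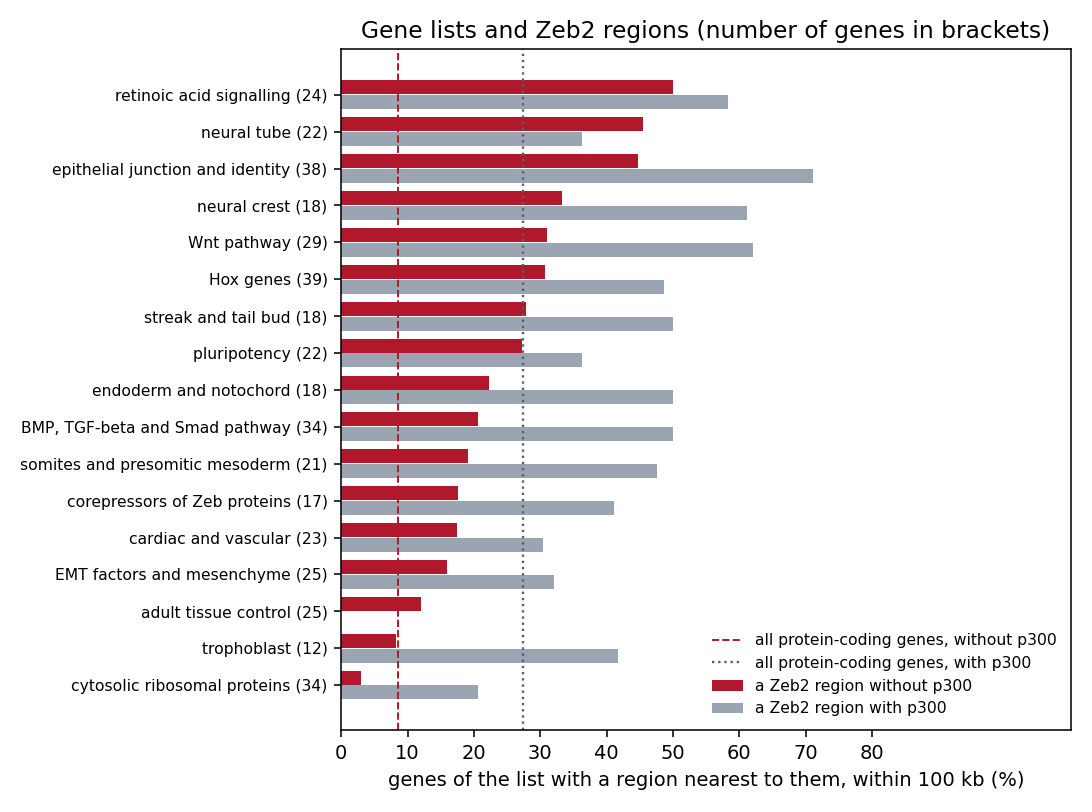
Percent of the genes of each list that were the nearest gene, within 100 kb, of a Zeb2 region without p300 (red, upper bar) or with p300 (grey, lower bar); dashed and dotted lines give the same for all protein-coding genes, 8.53% and 27.4%. Retinoic acid, neural tube and epithelial genes have the longest red bars, between 44.7% and 50.0%, and the neural tube and adult control lists are those whose red bar is longer than the grey.

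Retinoic acid signalling had the highest share, with 12 of 24 genes (50.0%) next to a region without p300 and 14 (58.3%) next to one with p300; 10 genes had both. Retinoic acid is the ligand of the RAR and RXR receptors and patterns the trunk. Its synthesis gene Aldh1a2 had 2 regions, the stronger at 212 bp after its start with folds of 6.26 and 5.20. The degradation gene Cyp26a1 had folds of 6.66 and 4.39 at the region whose promoter is printed above, with a p300 peak in replicate 2 alone. Among receptors, Rarg had folds of 8.06 and 4.96, with a p300 peak in replicate 2 alone. Rara had 5.88 and 4.59, and Rxrg 7.25 and 5.74. The cofactor genes Meis1 and Meis2 had 2 regions each, the highest at Meis2 with 9.68 and 5.87. Of the 15 regions, 10 had no p300 peak in either library, a share close to the 63.4% of all 2208, and 0 overlapped an mESC p300 region, beside 5.62% of all.

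The neural tube list had 10 of 22 genes (45.5%) with a region without p300 and 8 (36.4%) with p300, with 5 genes in both. Lhx5, a LIM homeobox factor of the forebrain and spinal cord, had 2 regions, the stronger with folds of 11.4 and 11.1 at 50504 bp from the gene. The stronger had a p300 peak in replicate 2 alone and overlapped an Sp5 region, and the weaker had a p300 peak in replicate 1 alone. Irx5, a homeobox factor, had 8.51 and 6.13 at a distal site. Pax6, a master regulator of neural progenitors and eye, had 5.19 and 4.79 at 102 bp after its start and no p300 peak in either library. Neurog2, a proneural factor, had 4.36 and 4.31, with a p300 peak in replicate 1 alone. Many of these sites were weak. The median folds of the 11 regions were 4.36 and 4.29, under the medians of all assigned regions without p300 (6.41 and 5.06). Of the 11, 6 had no p300 peak in either library, beside 63.4% of all 2208. In the neural crest list, 6 of 18 genes (33.3%) had a region without p300, beside 11 (61.1%) with p300. The strongest were at Tfap2b (10.04 and 7.33, with a p300 peak in replicate 2 alone) and Tfap2a (6.94 and 5.54), transcription factors of the AP-2 family. Mef2c and Msx1 had 2 each, with folds between 3.48 and 5.02.

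The Wnt pathway had 9 of 29 genes (31.0%) with a region without p300, beside 18 (62.1%) with p300. Rnf43, a ubiquitin ligase that removes Wnt receptors, was the strongest, with folds of 11.7 and 7.05 at 483 bp before its start. Its region overlapped an Sp5 region and had a p300 peak in replicate 1 alone. The receptor genes Fzd10 (2 regions) and Lrp5, and the factor gene Sp8 (2 regions), had folds between 3.55 and 7.68. The Lrp5 region, like that of Cdh1, had a p300 peak in each gastruloid library, with folds of 3.32 and 4.18, that stood 275 bp apart. In the BMP, TGF-β and Smad list, 7 of 34 genes (20.6%) had one, beside 17 (50.0%) with p300. The inhibitory Smad genes Smad6 and Smad7 had 2 regions each, with folds from 3.88 to 8.24, and Smad3 and the ligand gene Bmp7 had 1 each. Both Smad7 regions had a p300 peak in replicate 2 alone, and that of Smad3 in replicate 1 alone. Among genes of the corepressors that Zeb proteins recruit, 3 of 17 (17.6%) had a region without p300, beside 7 (41.2%) with p300. The 3 were the NuRD complex genes Chd3 with 2 regions, Chd5 and Gatad2a, with folds between 3.57 and 6.796. The Chd3 regions lay 57 and 112 bp from a p300 region, and Gatad2a had a p300 peak in replicate 2 alone.

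Among patterning and lineage lists, 12 of 39 Hox genes (30.8%) had a region without p300, beside 19 (48.7%) with p300. All 14 Hox regions without p300 lacked a p300 peak in both libraries or had 1 in replicate 2 alone. The highest had Hoxc4 (9.53 and 5.31), Hoxd1 (7.37 and 5.43) and Hoxb6 (6.46 and 7.22) as their nearest genes. The Hoxc4 region lay 38507 bp from the gene, and the Hoxd1 summit 169 bp before its start. Hoxb1 and Hoxb3 had 2 regions each, with folds from 2.97 to 5.28. The tail bud and primitive streak list had 5 of 18 genes (27.8%) with a region without p300, beside 9 (50.0%) with p300. There were 3 regions without p300 at Lhx1 and 2 at Eomes, a T-box factor of the streak. The Eomes region outside the gene had p300 peaks of both libraries 123 bp apart, with folds of 4.26 and 3.55. Somite genes had 4 of 21, with 3 regions at Tbx18, 2 at Pax9 and 1 each at Meox1 and Hes7. Pluripotency genes had 6 of 22 (27.3%), beside 8 (36.4%) with p300. Among the 6 were Tcl1 (12.3 and 6.05), Dppa5a (7.97 and 7.33), Tfcp2l1 (7.39 and 6.43) and Tbx3 (7.15 and 6.71). The Tbx3 region had a p300 peak in replicate 1 alone. The Tcl1 region lay 99632 bp from the gene, just within the limit of 100 kb.

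Endoderm genes had 4 of 18 (22.2%) with a region without p300, beside 9 (50.0%) with p300. The 4 were Foxa1, Gata4, Gata6 and Prdm1, with folds from 4.06 to 6.07. Cardiac and vascular genes had 4 of 23 (17.4%), with folds up to 8.20 at Isl1, beside 7 (30.4%) with p300. Genes of epithelial-mesenchymal transition factors and mesenchyme had 4 of 25 (16%), beside 8 (32%) with p300. The strongest of the 4 was Tcf3 (10.9 and 7.48), which encodes an E-box activator. The others were Pdgfra with 3 regions, and Foxc2 and Tcf4, each with a p300 peak in replicate 2 alone. The shares without p300 were lowest for cytosolic ribosomal protein genes, with 1 of 34 (2.94%, at Rpl11), and for trophoblast genes, with 1 of 12 (8.33%, at Fgfr2). With p300, these lists had 7 (20.6%) and 5 (41.7%). The adult tissue control list had 3 of 25 genes (12%), at Mbp, Myh6 and Sst, and 0 with a p300 region. Sst, the somatostatin gene, had folds of 15.6 and 10.3 and no p300 peak in either library. Most lists thus stood above 8.53% and, for regions with p300, above 27.4%. The shares without p300 depended on the distance allowed. Within 20 kb in place of 100 kb they fell to 36.4% for neural tube, 22.2% for neural crest and 24.1% for Wnt genes. All protein-coding genes then stood at 6.95%. The other lists fell by fewer points or, like the epithelial (44.7%) and retinoic acid (50.0%) lists, did not change.

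Position was the first property that did not enter the choice of regions. Of the 2208 regions without p300, 666 (30.2%, 95% Wilson interval 28.3 to 32.1) had their summit within 1 kb of either end of a protein-coding gene, as against 3959 of 7964 with p300 (49.7%, 48.6 to 50.8). Over all Zeb2 regions the share was 45.5%. The classes differed by -19.5 percentage points and by an odds ratio of 0.437 (0.395 to 0.483) and p = 2.72e-61 (Fisher's exact test, two-sided, Benjamini-Hochberg adjusted over 5 tests). Regions are not replicates, so this p describes these regions; both classes come from the same 2 Zeb2 libraries, and an exact paired test on 2 libraries gives no p under 0.5. Taking the peaks of each Zeb2 replicate alone, the share averaged 22.4% ± 8.01 without p300 and 44.7% ± 6.26 with p300 (SD, n = 2 libraries), and it was lower without p300 in both. The size of the difference depended on the definition: it was -8.20 points when all peaks needed a −log10 q of at least 5, -9.68 when a region was only the stretch covered in both replicates, and -12.2 when p300 had to lie at the Zeb2 summit.

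Regions without p300 lay more often inside genes away from the ends (37.5% without p300, 27.3% with p300) and between genes (32.4% and 23%). These shares are what the gene-end share leaves over, so they are not separate results. Fewer regions lay over 100 kb from any gene end without p300 (7.02%) than with p300 (8.27%). Their median distance to a gene end was 4372 bp, against 1024 bp with p300. Annotated starts were available for 17492 of the 21887 genes. Within 1 kb of one lay 544 regions without p300 and 3559 with p300. Their summits fell at a median of 115 bp without p300 and 111 bp with p300 after the start. The placement on the start was thus alike, with 63.2% without p300 and 64.0% with p300 on the transcribed side.

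**Figure D3:**
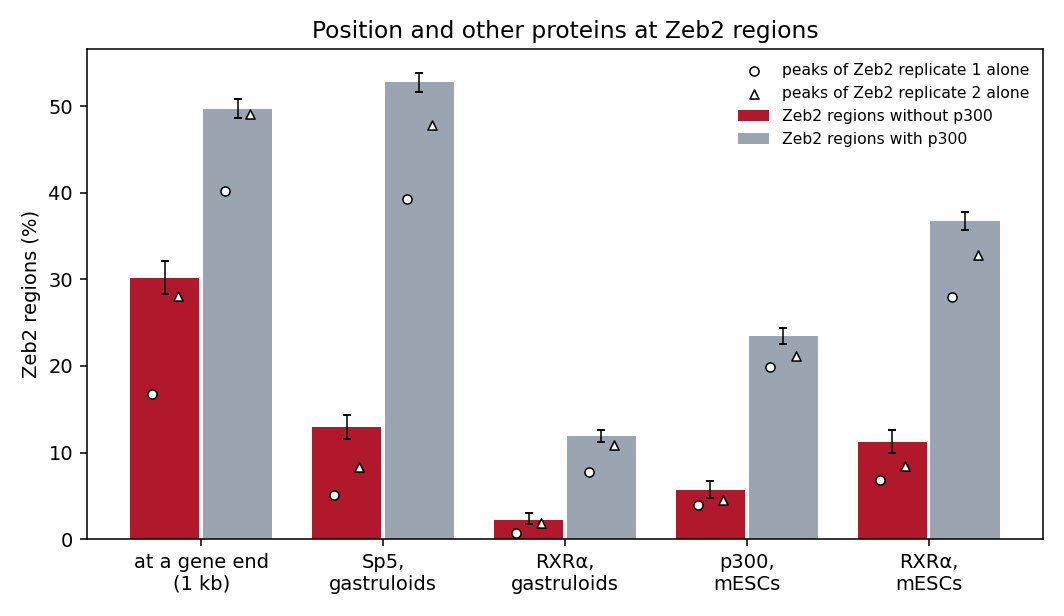
Percent of Zeb2 regions without p300 (red) and with p300 (grey) that lay within 1 kb of a gene end or overlapped a region of Sp5, RXRα or mESC p300; error bars are 95% Wilson intervals, and open circles and triangles give the peaks of Zeb2 replicate 1 and 2 taken alone. All 5 red bars are lower than the grey, with the widest gap for Sp5 (12.9% and 52.8%), and so are the points of each replicate.

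The other proteins were also detected less often. Sp5, a zinc-finger factor of the Sp family induced by Wnt signalling, overlapped 285 regions without p300 (12.9%) and 4203 with p300 (52.8%), beside 44.1% of all Zeb2 regions. The classes differed by -39.9 points and by an odds ratio of 0.133 (0.116 to 0.151) and adjusted p = 6.58e-272 (Fisher's exact test). In the Zeb2 replicates taken alone the shares were 6.71% ± 2.33 without p300 and 43.5% ± 6.0 with p300 (SD, n = 2). Against each Sp5 library alone they were 26.4% without p300 and 68.3% with p300 for replicate 1, and 14.3% and 53.9% for replicate 2. Sp5 and Zeb2 were both precipitated through HA and p300 through V5, and the part of the shared antibody was not tested.

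RXRα, the partner of the retinoic acid receptors, overlapped 50 regions without p300 (2.26%) and 948 with p300 (11.9%) in gastruloids, beside 9.81% of all Zeb2 regions. The odds ratio was 0.171 (0.129 to 0.229), with adjusted p = 3.45e-53 by Fisher's exact test. The second RXRα gastruloid library held few peaks, 3111 against 29867 in the first, and it set the size of these shares. With the first alone, 22.1% of the regions without p300 and 68.6% of those with p300 had an RXRα peak, a difference of -46.5 points in place of -9.64. In mESCs, RXRα regions overlapped 247 regions without p300 (11.2%) and 2923 with p300 (36.7%), beside 31.2% of all, with an odds ratio of 0.217 (0.189 to 0.250) and adjusted p = 1.18e-132 by Fisher's exact test. For the Zeb2 replicates alone, gastruloid RXRα averaged 1.29% ± 0.893 without p300 and 9.33% ± 2.26 with p300, and mESC RXRα 7.66% ± 1.14 and 30.4% ± 3.41 (SD, n = 2).

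The mESC lists show how many of the regions overlapped a p300 region found in both replicates of undifferentiated cells. These cells were other samples, not the same aggregates at an earlier time. The p300 of both stages carried V5-miniTurboID, and the part of this shared tag was not tested. Of the regions without gastruloid p300, 124 (5.62%) overlapped an mESC p300 region, as against 1865 (23.4%) of those with it and 19.6% of all Zeb2 regions. The odds ratio was 0.195 (0.161 to 0.235), with adjusted p = 9.06e-95 (Fisher's exact test), and the Zeb2 replicates alone gave 4.23% ± 0.378 without p300 and 20.6% ± 0.883 with p300 (SD, n = 2). Of the 124 regions without gastruloid p300, 31 (25.0%) lay at a gene end and 51 (41.1%) also held mESC RXRα, against 37.1% and 64.8% of the 1865 with it. Ranked by Zeb2 fold, the first were Cdh1, Spen, a transcriptional repressor gene (mESC p300 folds 8.31 and 5.36), Gm4925 (5.37 and 4.45), AI661453 (8.03 and 6.73) and Tmem125 (4.23 and 3.57). These genes, like Slc45a3 and Vwa8 after them, were picked from the ranking after their values were seen. Several had gastruloid p300 peaks that made no region found in both replicates. Cdh1 and Slc45a3 had a peak in each library, Spen in replicate 2 alone and Tmem125 in replicate 1 alone. Gm4925, AI661453 and Vwa8 had no gastruloid p300 peak. Altogether 1650 regions without p300 (74.7%) overlapped no region of Sp5, of RXRα in either stage or of mESC p300, against 28.5% of those with p300.

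Region width moved with most of these results. Split by width into 4 groups of nearly equal number, the share of Zeb2 regions that lacked p300 was 39.0% in the narrowest group (196 to 460 bp), then 23.3%, 16.3% and 8.32% in the widest (948 to 2477 bp). Within each group the gene-end share was still lower without p300, by a smaller margin: 14.6% without and 17.4% with p300 in the narrowest, 28.7% and 38.6% in the second, 53.8% and 60.1% in the third, and 60.8% and 71.0% in the widest. For Sp5 the gap stayed wide, from 5.96% without and 17.5% with p300 in the narrowest group to 31.1% and 77.0% in the widest. The mESC p300 share barely moved with width, between 4.72% and 5.90% without p300 and between 21.8% and 24.1% with p300. In 4 groups by the weaker Zeb2 fold, the share lacking p300 was 30.8% in the weakest and 16.04% in the strongest. The gene-end shares there were 29.6% without and 51.3% with p300 in the weakest group, and 29.4% and 47.2% in the strongest.

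**Figure D4:**
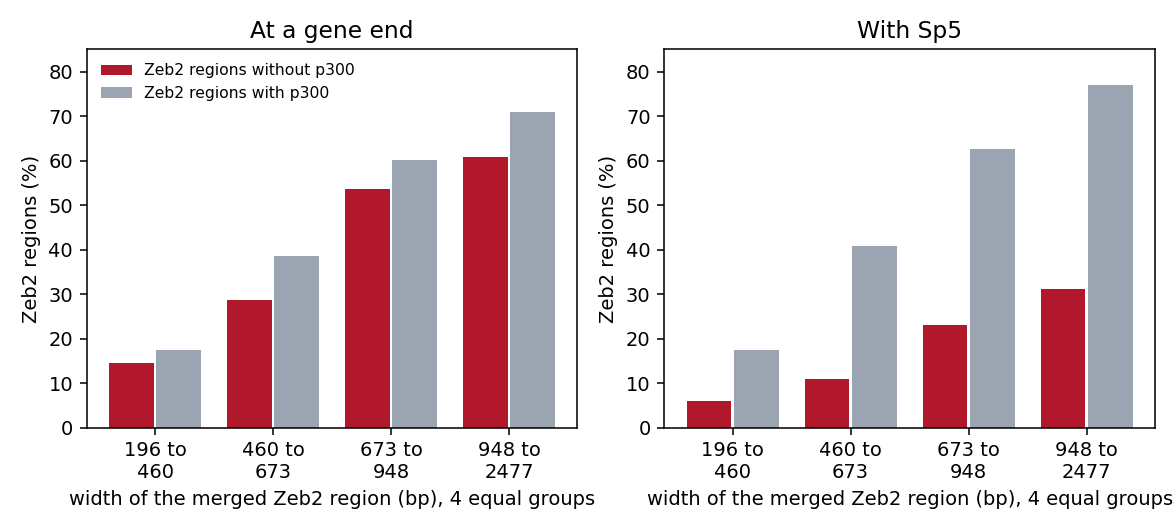
Percent of Zeb2 regions at a gene end (left) and with Sp5 (right) in 4 groups by merged region width in bp, for regions without p300 (red) and with p300 (grey). Both classes climb with width; the narrowest regions are at a gene end in 14.6% without and 17.4% with p300 and the widest in 60.8% and 71.0%, while Sp5 reaches 31.1% and 77.0% in the widest.

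In promoters, the windows with a Zeb2 summit were searched for motifs as letters on both strands. A region without p300 had its summit in 135 of the RefSeq windows of 300 bases and a region with p300 in 904, out of 21238 windows. CACCTG was present in 87 of the 135 windows without p300 (64.4%, 95% Wilson interval 56.1 to 72.0), in 447 of the 904 with p300 (49.4%, 46.2 to 52.7) and in 19.7% of all windows. The nearest E-box lay at a median of 27.5 bp from the summit without p300 and 28.5 bp with p300, and within 50 bp in 67.8% and 71.8% of the windows that had one. Of those windows, 37.9% without p300 and 21.5% with p300 held 2 or more E-boxes. These shares are descriptions without a test, because the planned search around all summits needed a genome, which was not used. How well Zeb2 bound also entered the choice of regions. The shorter core CACCT, which the E-box contains, was in 80% of the windows without p300, 74.2% of those with p300 and 51.4% of all.

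Motifs of other factors had like shares in both classes. The Sp-type GC box GGGCGG was in 71.1% of the windows without p300 and 72.0% of those with p300, and in 46.2% of all windows. The nuclear receptor site AGGTCA was in 8.89% without p300, 11.4% with p300 and 14.7% of all, and CTTTGA, bound by TCF factors of the Wnt pathway, in 9.63%, 11.4% and 14.4%. Windows without p300 had a median GC content of 62.3% and 17 CpG dinucleotides, against 64.0% and 24 with p300 and 56.3% and 13 over all windows. Base composition differed between the classes, and its part in the motif shares was not tested.

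**Figure D5:**
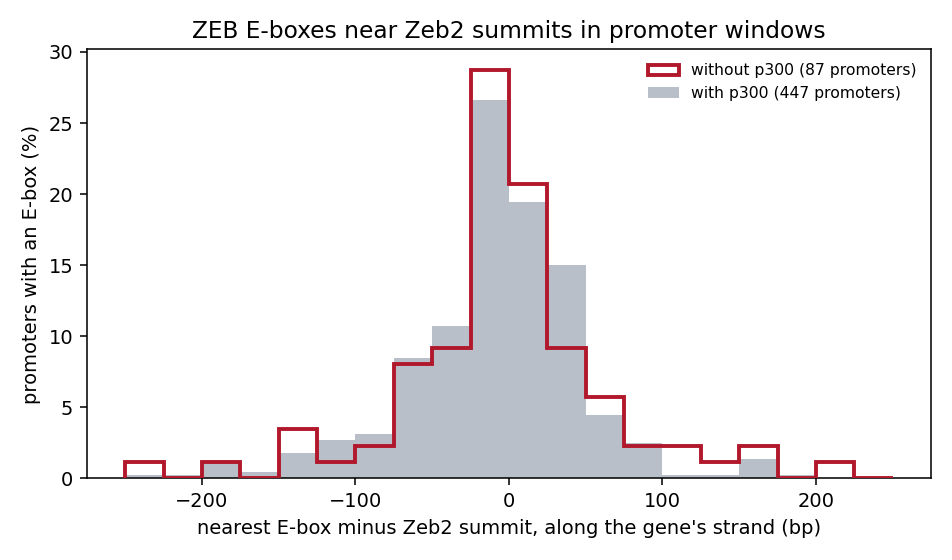
Distance in bp of the nearest CACCTG E-box from the Zeb2 summit, along the gene's strand, in promoter windows that held both, as percent of windows; the red outline is the 87 windows without p300 and the grey fill the 447 with p300. Both peak at the summit, with medians of 27.5 and 28.5 bp regardless of side.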

How the data were processed

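The deposited files hold 1 peak list per library, 14 in all, on mouse build GRCm38.p6 (mm10). Per the submitters' processing notes, fastp 0.20.1, BWA 2.2.1 and MACS2 2.2.7 were used; their settings and the control used are not given in the sources used here. The authors' score of each peak was 10 times its −log10 q, rounded down, and the deposited fold is a ratio of summit pileup to local background. The authors also gave −log10 p and −log10 q, with every list reaching a q just under 0.05. Peaks were called per library, not on pooled replicates.

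Sequencing depth is not in the lists. Solving the deposited fold and −log10 p together gave the fragments at a summit: all 20344 Zeb2 values came out whole within 0.01. The weaker Zeb2 replicate, with a median of 12 or 13 fragments, limits which sites could be found, and intervals cover counting error only.

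Computed here: duplicate intervals were counted once, peaks on the 21 main chromosomes that touched no input peak were kept (44310 and 12222 for Zeb2, 63117 and 75346 for p300), and replicates were merged into regions with an overlap of at least 1 bp. The planned design worded a region as the stretch covered in both replicates, which is kept as an alternative. The summit is that of the replicate with the higher fold. Genes were 21887 RefSeq protein-coding genes of the same build, whose table gives no exons; starts and sequences came from RefSeq promoter and microRNA tables. Promoter windows were available for 17492 of these genes, and chromosome 18 promoters were not used here. No genome was used, so E-boxes were sought in promoter windows and not, as planned, around all summits, and got no test. Shares were compared by Fisher's exact test, two-sided, adjusted by Benjamini-Hochberg over 5 tests (threshold 0.05), with scripts tested on simulated data (Python 3.11.15, scipy 1.17.1, pandas 2.3.3). Named genes were the 12 strongest regions by the weaker replicate, the 8 genes with most regions (ties by the fold of the highest), up to 4 genes per list, and the profiled genes; other epithelial genes, other retinoic acid genes, Hoxc4, the regions with mESC p300 and the miR-200 loci were added after their values were seen. The regions and the 17 gene lists were chosen with earlier results of these data known. Each replicate was left out in turn, and other thresholds, overlaps and distances were tried; the stretch, p300 at the summit and the splits by width and fold were added after seeing the data.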

Additional observations from a re-analysis of the deposited data

How the results depend on the processing

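Of 92 alternative values, 84 kept the direction, and for counts stayed within 1.5 times. All 5 shares tested stayed lower without p300, with an adjusted p under 0.05, under every alternative that could be fitted. The number of regions without p300, 2208, moved most: it was 1399 when any p300 peak of either replicate counted, and 1358 when all lists needed a −log10 q of 5 or more. Leaving out 1 library gave 1795 to 21540, with 3756 without Zeb2 replicate 1 and 21540 without Zeb2 replicate 2, when single-library peaks were used. The number of genes near them, 1867, was 1204 and 1217 under the first pair of settings, and 1537 to 9775 with 1 library left out. The stretch covered in both replicates gave 3163 regions and p300 at the summit 2850. Leaving out 1 library, the differences in percentage points ranged from -23.5 to -19.0 at gene ends, from -41.9 to -34.2 for Sp5, from -46.5 to -7.08 for gastruloid RXRα (-46.5 without its replicate 2), from -25.8 to -16.0 for mESC p300 and from -32.9 to -21.1 for mESC RXRα. Under the other settings the Sp5 difference ranged from -42.3 to -27.6. The E-box difference in promoter windows, 15.0 points in the definition used, ranged from 8.06 with the covered stretch to 19.5 with a −log10 q of at least 5, and was 8.64 without Zeb2 replicate 2; the causes were not tested. Short lists were those of Zeb2 replicate 2 (12222) and, in RXRα gastruloids, replicate 2 (3111); depth is not given, and its part was not tested. No paired analysis was possible because 2 Zeb2 libraries are too few for a test: an exact paired test gives no p under 0.5. The classes are compared by counts of regions, not by a model over libraries. Both classes were measured in each Zeb2 library, so the differences within a library can be described without a p. Within Zeb2 replicate 1 and replicate 2 alone the gene-end difference was -23.5 and -21.0 points.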
